A study of Mus musculus with 23 samples.

Results

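B cells recognise antigen through a membrane immunoglobulin that signals through the paired chains Cd79a and Cd79b, and Ms4a1 (CD20) and Cr2 (complement receptor 2) are further surface proteins of mature B cells. In lymph nodes, and in the lymphoid aggregates that can form in tumors, stromal cells secrete Cxcl13, which draws cells carrying Cxcr5 into B cell follicles, and Ccl19 and Ccl21a, which draw cells carrying Ccr7 into the T cell zone. These 9 genes were followed here through whole tumors of 5 syngeneic mouse models. They were found by symbol in a table of 24940 gene symbols, and all 9 were listed.

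The tumors came from the C57BL/6 lines B16-F10 (melanoma, here B16), EO771.LMB (mammary carcinoma, EO771), LL/2 (Lewis lung carcinoma, LL2), MC38 (colon carcinoma) and Pan02 (pancreatic carcinoma), of which 500000 cells each had been placed in the flank of adult female C57BL/6 mice that received no other treatment. Each model is therefore 1 cell line in 1 host strain, ulcerated tumors had been left out by the study, and 3 tumors per model (15 in all) were sequenced from poly(A) RNA of a tumor fragment. As background served 8 libraries of cancer-associated fibroblasts (CAFs), 2 each from EO771, LL2, MC38 and Pan02 tumors, that had been sorted as CD45- FAP+ cells. The titles of the Pan02 tumors read Pan01 while their cell line field reads Pan02, and the cell line field was followed. The labels do not say that each library came from a separate animal, so p-values measure the spread between these libraries.

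Tumor libraries held 10035173 to 21946486 counts on the transcripts used. Levels are given as CPM, counts scaled to a common library size with TMM factors, with the mean ± SD of 3 tumors, and per kilobase of transcript where genes are compared with each other. Lineage markers were checked against the labels. The summed level of 5 melanocyte genes was 20900 to 26100 CPM in B16 tumors, and all 5 genes were lower in each other model. The summed level of 5 epithelial genes was 2110.0 to 3340.0 CPM in Pan02, 1210.0 to 1270.0 CPM in EO771 and 468.0 to 739.0 CPM in LL2. In EO771 nearly all of it was Krt8 (1200 to 1260 CPM), while Krt18, Krt19, Cdh1 and Epcam were each at most 6.8 CPM there. In MC38, labelled as a colon carcinoma line, the summed level was 8.39 to 61.1 CPM, near the 7.47 to 12.4 CPM of B16. The carcinoma label of MC38 was therefore not borne out by these genes, and that of EO771 was borne out by Krt8 alone. In bulk RNA, fewer cells of a type and less RNA per cell cannot be told apart. A gene was called in a model when edgeR's quasi-likelihood test, which set that model's mean beside the average of the 4 remaining ones, gave a Benjamini-Hochberg adjusted p under 0.05. The 5 contrasts share tumors and are not independent of each other.

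Of the 5 members that could be tested, 4 had their highest mean in Pan02, Cd79a had it in EO771, and all 5 had their lowest mean in B16. Of the 9 genes, 5 had enough counts to be tested (Cd79a, Cd79b, Cxcl13, Ccr7 and Cxcr5), and each differed among the models, which 91.1% of the 15722 tested genes also did. In Pan02, 5 of 5 tested members were higher, where 32.5% of all tested genes were. In B16, 4 of 5 were lower, where 31.6% of all tested genes were. MC38 had 2 higher members (27% of all tested genes), EO771 had 1 higher member (27.2%) and LL2 had 1 lower member (18.9%). For the opposite directions, 31.9% of all tested genes were higher in B16, 28.1% lower in Pan02, 24.4% lower in MC38, 27% lower in EO771 and 23.3% higher in LL2. Of the 5 tested members, 0 had all 3 Pan02 tumors above the other 12, which 8.93% of tested genes had. The median log2 fold change of the 5 tested members was 1.51 in Pan02 against 0.05 over all tested genes, and -1.55 in B16 against -0.03.

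Pairs of models were compared as well. B16 and Pan02 differed in 5 of 5 tested members (64.3% of all tested genes differed). For EO771 and Pan02 (61.2%), MC38 and Pan02 (58.9%), LL2 and Pan02 (48.6%) and B16 and MC38 (60%) it was 3 of 5. For B16 and EO771 (58.6%), EO771 and LL2 (44.4%) and LL2 and MC38 (43.8%) it was 2 of 5, and for B16 and LL2 (56.6%) it was 1 of 5. Between EO771 and MC38 (49.4%) the 5 members had edgeR adjusted p = 0.14 to 0.89.

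**Figure D1:**
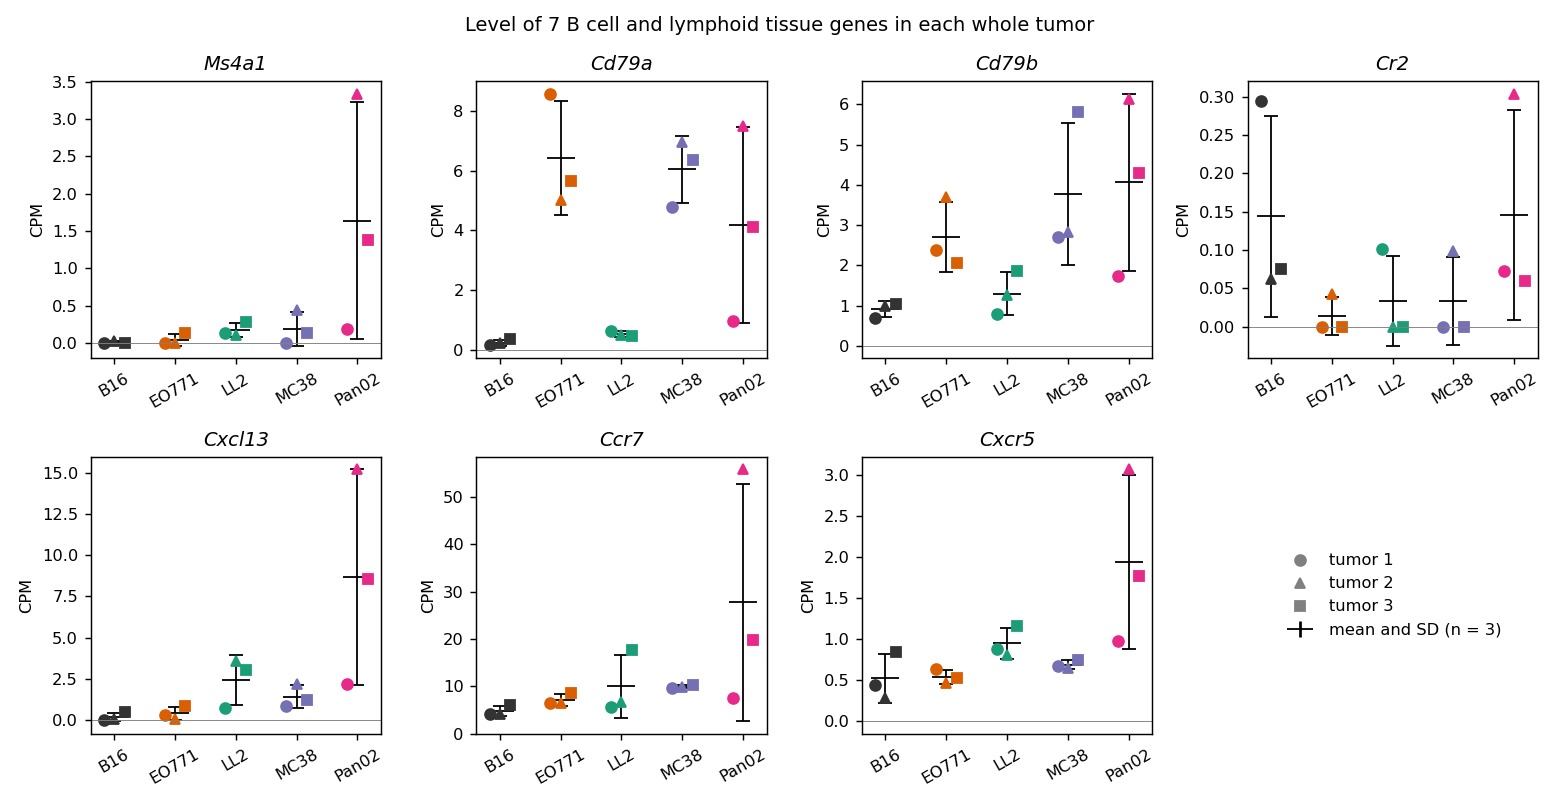
Level in CPM (y axis, linear, its own range in each panel) of the 7 members with any count in each of the 15 tumors, by model on the x axis. Points are single tumors, the horizontal bar and whiskers are the mean and SD of 3 tumors. Pan02 tumor 2 is the highest tumor in 6 of the 7 panels, and in the Cd79a panel EO771 tumor 1 is highest.

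The signalling chains of the B cell receptor did not follow 1 pattern. Cd79a (1320-base transcript at chr7:24897511-24902197, plus strand, mm10) measured 8.58, 5.01 and 5.66 CPM in EO771 tumors 1 to 3 and 4.79, 6.95 and 6.37 CPM in MC38 tumors. It measured 0.953, 7.49 and 4.11 CPM in Pan02, 0.646, 0.495 and 0.470 CPM in LL2, and 0.147, 0.218 and 0.349 CPM in B16. EO771 and MC38 tumors all stood above LL2 and B16 tumors, Pan02 tumor 1 stood close to LL2, and the 3 B16 tumors lay below the other 12, which 12.2% of all tested genes did in B16. Cd79a was lower in B16 (log2 fold change -3.46 ± 0.58 SE, edgeR adjusted p = 0.00015) and in LL2 (-2.19 ± 0.51, adjusted p = 0.0037). It was higher in EO771 (2.18 ± 0.37, adjusted p = 0.00024), in MC38 (2.07 ± 0.37, adjusted p = 0.00039) and in Pan02 (1.40 ± 0.39, adjusted p = 0.0063).

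Among pairs of models, 6 of 10 differed in Cd79a. The order of the means was EO771 (6.42 ± 1.90 CPM), MC38 (6.04 ± 1.12 CPM), Pan02 (4.18 ± 3.27 CPM), LL2 (0.537 ± 0.095 CPM) and B16 (0.238 ± 0.102 CPM). Of neighbours in this order, Pan02 and LL2 differed (edgeR adjusted p = 0.001), while EO771 and MC38 (adjusted p = 0.89), MC38 and Pan02 (adjusted p = 0.36) and LL2 and B16 (adjusted p = 0.23) did not pass the test.

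Cd79b (chr11:106311341-106314562, minus strand), the partner chain, measured 1.73, 6.14 and 4.29 CPM in Pan02 tumors 1 to 3 and 2.70, 2.83 and 5.82 CPM in MC38. It measured 2.38, 3.69 and 2.05 CPM in EO771, 0.781, 1.25 and 1.85 CPM in LL2, and 0.688, 0.995 and 1.05 CPM in B16. B16 tumors lay below every EO771, MC38 and Pan02 tumor and overlapped LL2. Cd79b was lower in B16 (log2 fold change -1.55 ± 0.43 SE, edgeR adjusted p = 0.006) and higher in Pan02 (1.10 ± 0.34, adjusted p = 0.013) and MC38 (0.97 ± 0.35, adjusted p = 0.03). The MC38 call was lost without MC38 tumor 3 (0.53, adjusted p = 0.29). In EO771, where Cd79a had its highest mean, Cd79b was at a log2 fold change of 0.39 ± 0.37 (adjusted p = 0.38).

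Both chains form a dimer, so their levels per kilobase were set side by side in each tumor. The Cd79a level was 1.26 to 3.34 times the Cd79b level in EO771 and 1.01 to 2.28 times in MC38. It was 0.509 to 1.13 times in Pan02, 0.236 to 0.765 times in LL2 and 0.199 to 0.309 times in B16. EO771 tumors and all MC38 tumors but 1 lay above every Pan02, LL2 and B16 tumor, with the lowest MC38 ratio of 1.01 inside the Pan02 range. B16 ratios rest on 1.5 to 7.0 counts of Cd79a, and LL2 ratios on 7.5 to 9.5 counts.

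**Figure D2:**
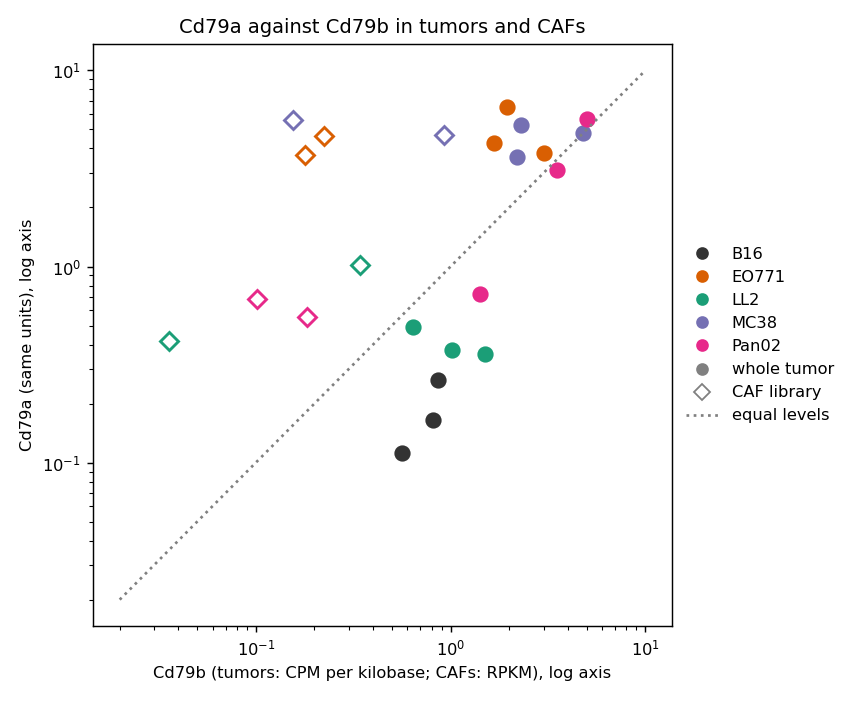
Level of Cd79a (y axis) against Cd79b (x axis), both log axes, with each whole tumor as a filled circle (CPM per kilobase) and each CAF library as an open diamond (RPKM). The dotted line marks equal levels. All 8 CAF libraries lie above the line, all EO771 and MC38 tumors lie above it, and all LL2 and B16 tumors lie below it.

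Ms4a1 (chr19:11250603-11266151, minus strand), the surface protein CD20, was close to the counting floor outside Pan02. It measured 0.195, 3.34 and 1.38 CPM in Pan02 tumors 1 to 3, from 4.0, 49.5 and 23.0 counts. In the other 12 tumors it was at most 0.447 CPM, 5 of them had 0 counts, and 3 counts correspond to 0.144 to 0.295 CPM in these libraries. Pan02 tumors 2 and 3 therefore stood above all others and Pan02 tumor 1 did not. Tumor 2 alone held 54.0% of the summed Ms4a1 level of the 15 tumors. Ms4a1 did not pass the filter on low counts. Fitted without that filter it was higher in Pan02 (log2 fold change 4.16 ± 0.78 SE, edgeR adjusted p = 0.00027, a call that 24.5% of the 21833 genes in that fit also had). EO771 tumors, with 286.0 counts of Cd79a over 3 tumors, held 1.5 counts of Ms4a1.

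Cr2 (chr1:195136811-195176715, minus strand), which binds complement fragments and also marks follicular dendritic cells, was not measurable at this depth. All 15 tumors together held 16.5 counts, and the highest single values were 0.304 CPM in Pan02 tumor 2 and 0.295 CPM in B16 tumor 1. Without the filter its 5 models did not pass the test (edgeR adjusted p = 0.35).

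Cxcl13 (chr5:95956939-95961068, plus strand), the B cell attracting chemokine, was most abundant in 2 of the Pan02 tumors. It measured 2.17, 15.2 and 8.55 CPM in Pan02 tumors 1 to 3 and 0.713, 3.57 and 3.01 CPM in LL2. It measured 0.842, 2.21 and 1.23 CPM in MC38, 0.291, 0.0849 and 0.871 CPM in EO771, and 0, 0.0622 and 0.474 CPM in B16. Pan02 tumors 2 and 3 exceeded all others, while Pan02 tumor 1 lay inside the ranges of LL2 and MC38. Cxcl13 was higher in Pan02 (log2 fold change 3.49 ± 0.56 SE, edgeR adjusted p = 0.00012) and lower in B16 (-3.06 ± 0.92, adjusted p = 0.0097). The means fell in the order Pan02 (8.66 ± 6.54 CPM), LL2 (2.43 ± 1.51 CPM), MC38 (1.43 ± 0.704 CPM), EO771 (0.416 ± 0.408 CPM) and B16 (0.179 ± 0.258 CPM). No pair of neighbours in this order passed the test, with adjusted p from 0.073 for LL2 and Pan02 to 0.53 for B16 and EO771.

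Cxcr5 (chr9:44511787-44526421, minus strand), the receptor of Cxcl13 on B cells and follicular helper T cells, was low throughout. It measured 0.977, 3.07 and 1.77 CPM in Pan02 tumors 1 to 3 and 0.883, 0.808 and 1.16 CPM in LL2. The other 9 tumors lay between 0.280 and 0.848 CPM. Cxcr5 was higher in Pan02 (log2 fold change 1.51 ± 0.31 SE, edgeR adjusted p = 0.0008) and in B16, its lowest model by mean, it was at -0.71 ± 0.38 (adjusted p = 0.11), and without B16 tumor 3 it was called lower there (-1.23, adjusted p = 0.038). Of the exon bases annotated to Cxcr5 by GENCODE, 3.3% are shared with Bcl9l, and the reads were counted without strand.

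Ccr7 (chr11:99144199-99155077, minus strand), the receptor of Ccl19 and Ccl21 on naive T cells, B cells and mature dendritic cells, had the highest CPM of the members. It measured 7.57, 55.8 and 19.7 CPM in Pan02 tumors 1 to 3 and 5.64, 6.78 and 17.6 CPM in LL2. It measured 9.68, 9.86 and 10.3 CPM in MC38, 6.46, 6.45 and 8.54 CPM in EO771, and 4.17, 4.17 and 6.06 CPM in B16. Pan02 tumor 1 lay below all 3 MC38 tumors, and 1 LL2 tumor came close to Pan02 tumor 3. Ccr7 was higher in Pan02 (log2 fold change 1.85 ± 0.40 SE, edgeR adjusted p = 0.0012), and the Pan02 mean of 27.7 ± 25.1 CPM differed from each other model, including its neighbour LL2 (adjusted p = 0.045). It was lower in B16 (-1.28 ± 0.49, adjusted p = 0.035), a call that was lost when any 1 B16 tumor was left out (-1.18 to -1.50, adjusted p = 0.057 to 0.11). No pair among LL2, MC38, EO771 and B16 passed the test.

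**Figure D3:**
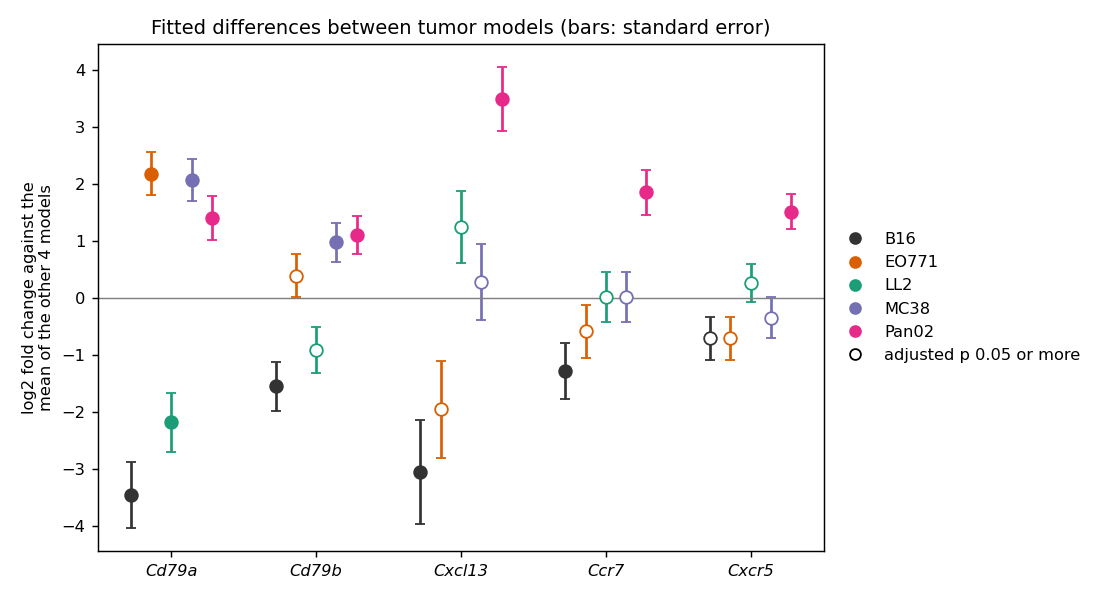
Fitted log2 fold change (y axis) of the 5 tested members in each model relative to the average of the remaining 4, with bars for the standard error. Filled points passed an adjusted p of 0.05 and open points did not. All 5 Pan02 points are filled and above 0, 4 of 5 B16 points are filled and below 0, and Cd79a is filled in all 5 models.

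The Pan02 calls leaned on 1 library. Pan02 tumor 2 was the highest of the 15 tumors in 6 of the 7 members with counts. It held 38.8% of the summed Cxcl13 level and 31.2% of the summed Ccr7 level of all tumors. Without it, 2 of the 5 Pan02 calls were left, those of Cxcl13 and Cxcr5. Of all 15722 tested genes, 4514 were higher in Pan02 without tumor 2 and 5111 with it. Ccr7 was then at a log2 fold change of 0.82 (edgeR adjusted p = 0.069), Cd79b at 0.68 (adjusted p = 0.15) and Cd79a at 0.67 (adjusted p = 0.16). Ptprc, the general leukocyte gene CD45, moved with the split inside Pan02, at 35.1, 113.0 and 91.1 CPM in tumors 1 to 3, and its part in these results was not tested.

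Leukocyte genes also moved with the B16 result. All 4 genes of the leukocyte list and all 7 of the macrophage list were lower in B16, where 31.6% of all tested genes were. The summed leukocyte level was 139.0 to 264.0 CPM in B16 and 321.0 to 845.0 CPM in the other 12 tumors. Set against Ptprc in the same tumor, Ccr7 was at 8.98 to 19.2 CPM per 100 CPM of Ptprc in B16, a range that overlapped EO771 (8.56 to 11.2), MC38 (8.5 to 11.9) and LL2 (13.2 to 14.9) and lay below Pan02 (21.6 to 49.4). Cd79a on the same scale was 0.469 to 1.10 in B16 and 0.379 to 1.71 in LL2, below Pan02 (2.71 to 6.63), MC38 (4.77 to 8.39) and EO771 (6.65 to 14.3). The part of leukocyte content in the B16 calls was not tested further.

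The chemokines of the T cell zone, Ccl19 and Ccl21a, were listed at 0 in all 15 tumors. Both are annotated in the table as having 2 genome copies, Ccl19 at chr4:42754525-42756518 and Ccl21a on a scaffold of chromosome 4 without a fixed place (JH584294, bases 120655 to 121786). Of the 454 transcripts with 2 or more genome copies, 60.8% were at 0 in all 15 tumors, against 7.62% of the 40002 transcripts with 1 copy. In the CAF table, made from other libraries, both genes had reads. A 0 for these genes is therefore a statement about the tumor table, and no level was inferred from it.

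The Ccl21a family shows how alike the copies are. Of the 50-base windows of its GENCODE transcript, 71.6% also occur in transcripts of Ccl21b, Gm10591, Gm13304 or Gm21541, and of those of Ccl19, 59.1% occur in copies such as Gm2564 and Ccl19-ps1. The other 7 members shared at most 8.3% of windows, which was Cd79a with Gm32220. Each of these 4 copies has a coding sequence of 399 bases that differs from that of Ccl21a by 2 substitutions, T84A and C194T, with positions counted from 1 at the start codon and the Ccl21a base first. The 30 coding bases from 70 and from 180 are shown with the differing base in capitals, and reads that cover neither position cannot separate the genes by their coding sequence.
Ccl21a from base 70: agtgatggagggggTcaggactgctgcctt
Ccl21b from base 70: agtgatggagggggAcaggactgctgcctt
Ccl21a from base 180: ggcaatcctgttctCaccccggaagcactc
Ccl21b from base 180: ggcaatcctgttctTaccccggaagcactc

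In sorted CAFs, Ms4a1 was at most 0.108 RPKM in the 8 libraries, and Cd79a was higher. Cd79a was at 3.71 and 4.63 RPKM in EO771 CAFs and 5.56 and 4.66 RPKM in MC38 CAFs, against 0.679 and 0.551 RPKM in Pan02 and 1.02 and 0.415 RPKM in LL2. The 4 EO771 and MC38 libraries all stood above the other 4, and the models differed (limma adjusted p = 0.00019). Cd79b lay between 0.036 and 0.926 RPKM and did not reach the minimum for testing. Ptprc was at most 0.947 RPKM, and in MC38 CAFs it was at 0.007 and 0.084 RPKM, from 1 and 8 recovered reads, beside 194 and 114 reads of Cd79a.

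Of the 9 members, 4 could be tested in CAFs and 3 differed among the 4 models, where 80.4% of the 13598 tested genes did. Ccr7 was at 5.42 and 4.63 RPKM in MC38 CAFs and between 0.465 and 0.740 RPKM in the other 6 libraries (limma adjusted p = 5.3e-05). Cxcl13 was at 20.6 and 23.4 RPKM in EO771 CAFs and between 1.64 and 6.02 RPKM in the others (limma adjusted p = 0.0016). For both genes, the libraries of the highest model stood above every other library. Ccl19 was between 0.216 and 2.81 RPKM (limma adjusted p = 0.40), with the highest value in 1 of the MC38 libraries. Without the other MC38 library, at 0.227 RPKM, its limma adjusted p was 0.0021 and 4 members differed. Ccl21a was between 0 and 2.46 RPKM and was not tested.

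Whole tumors and CAFs were put in different units and normalized apart, so their levels were only set side by side. EO771 had the highest Cxcl13 in CAFs (mean 22.0 RPKM) and the second lowest in whole tumors (0.360 ± 0.353 CPM per kilobase). Pan02 had the lowest Cxcl13 mean in CAFs (3.15 RPKM, from 4.65 and 1.64 RPKM), close to that of LL2 (3.26 RPKM). In tumors Pan02 had the highest mean (7.49 ± 5.66 CPM per kilobase). Cd79a was close in both sets for EO771 (4.17 RPKM and 4.86 ± 1.44 CPM per kilobase) and MC38 (5.11 RPKM and 4.57 ± 0.847 CPM per kilobase), and for Pan02 it was 0.615 RPKM and 3.17 ± 2.48 CPM per kilobase. Ccr7 in MC38 was 5.03 RPKM and 5.05 ± 0.174 CPM per kilobase.

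The CAF libraries differed in purity markers as well. The summed level of 5 epithelial genes was 832.0 and 1120.0 RPKM in Pan02, 494.0 and 500.0 RPKM in EO771, at most 209.0 RPKM in LL2, and 3.73 and 1.72 RPKM in MC38. In EO771 CAFs nearly all of it was Krt8 (491.757 and 494.973 RPKM). The summed level of 7 macrophage genes was 149.0 and 192.0 RPKM in EO771 CAFs and at most 23.8 RPKM in the others. The fibroblast list was at 913.0 RPKM in 1 MC38 library and at 1890.0 to 6670.0 RPKM in the other 7 libraries. The part of these cells in the CAF values was not tested.

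**Figure D4:**
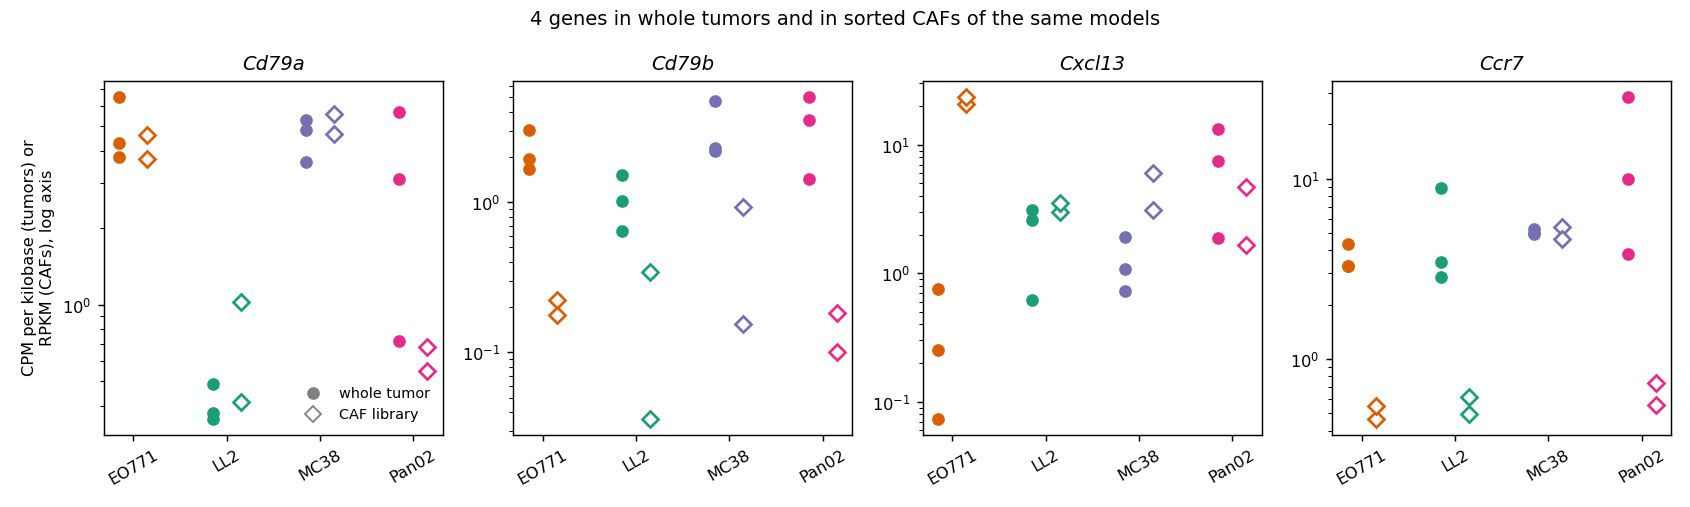
Cd79a, Cd79b, Cxcl13 and Ccr7 in whole tumors (filled circles, CPM per kilobase, 3 per model) and in CAF libraries (open diamonds, RPKM, 2 per model), on log axes. The units differ between the sets. For Cxcl13 in EO771, CAF libraries at 20.6 and 23.4 RPKM stand above all 3 tumors, and for Cd79b the CAF libraries stand below the tumors in every model.

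Other B lineage genes moved with the members in Pan02 and B16. Of 13 tested genes of the B cell list, 11 were higher in Pan02 (32.5% of all tested genes) and 10 were lower in B16 (31.6%). The median log2 fold changes of the 13 genes were 1.38 in Pan02 and -1.83 in B16. Pou2af1, a B cell transcriptional coactivator, measured 1.03, 15 and 7.47 CPM in Pan02 tumors and at most 1.89 CPM elsewhere (log2 fold change in Pan02 4.50 ± 0.53 SE, edgeR adjusted p = 7.4e-06). Blk, a Src family kinase of B cells, was lower in B16 (-3.81 ± 1.14, adjusted p = 0.0055), as was Tnfrsf13c, the receptor for the survival factor BAFF (-3.17 ± 0.85, adjusted p = 0.0038). Without Pan02 tumor 2, 7 of the 11 Pan02 calls were left, and Bank1, Fcrl1, Spib and Tnfrsf13b no longer passed.

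Pax5, the transcription factor that sets B cell identity, went with MC38 instead. It measured 2.55, 2.78 and 1.99 CPM in MC38, at most 0.609 CPM in the other 12 tumors, and was listed at 0 in all 3 B16 tumors. It was called higher in MC38 (edgeR adjusted p = 9.6e-06), with all 3 tumors above the other 12, which 7.66% of tested genes were in that model. Pax5 passed the filter on low counts only through the MC38 tumors, so the call adds no support to these values. Of the 13 tested B cell genes, 5 were higher (27.2% of all tested genes) and 1 was lower (27%) in EO771. In MC38 2 were higher (27%), and in LL2 1 was higher (23.3%) and 1 was lower (18.9%).

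Genes of antibody-secreting plasma cells showed the largest Pan02 differences among the B lineage lists. Jchain, which joins secreted IgM and IgA, measured 9.60, 197.0 and 168.0 CPM in Pan02 tumors and at most 6.16 CPM in the other 12 (log2 fold change 5.99 ± 0.58 SE, edgeR adjusted p = 1.4e-06). Mzb1, a chaperone of antibody secretion, measured 0.684, 16 and 10.1 CPM in Pan02 (4.15 ± 0.61, adjusted p = 5.3e-05). Derl3, of the endoplasmic reticulum, was higher too (3.53 ± 0.48, adjusted p = 2.5e-05). At most 0.548 CPM in the other 12 tumors, it passed the filter on low counts only through Pan02, so its call adds no support. Of 9 tested plasma cell genes, 8 were higher (32.5% of all tested genes) and 1, Fkbp11, was lower (28.1%) in Pan02. Without Pan02 tumor 2, 7 stayed higher. Sdc1, also an epithelial gene, reached 1920.0 CPM in EO771, and Irf4, also active in melanocytes, was higher in B16 as well (1.65 ± 0.46, adjusted p = 0.0069). Immunoglobulin constant genes were not among the listed symbols, and Jchain in CAFs was at most 0.129 RPKM.

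**Figure D5:**
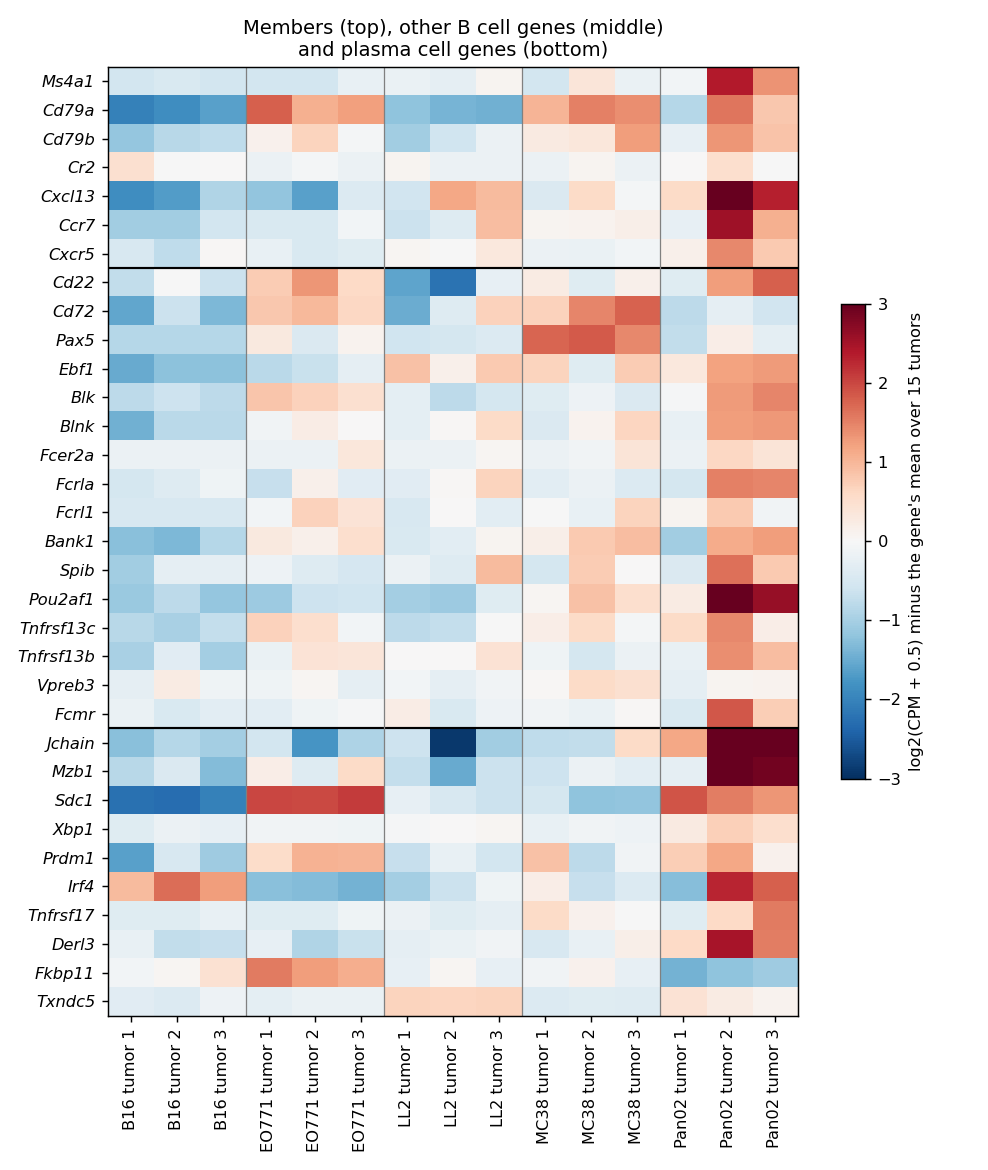
Level of each gene in each tumor as log2(CPM + 0.5) minus the mean of that gene over the 15 tumors, for 7 members (top), 16 other B cell genes (middle) and 10 plasma cell genes (bottom). Red is above and blue below the mean of the gene, with the scale ending at 3 either way. Pan02 tumors 2 and 3 are red for most genes while Pan02 tumor 1 is not, and Pax5 is red in the 3 MC38 tumors.

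Lymphotoxins and survival factors feed the formation of lymphoid tissue and the upkeep of B cells. All 14 genes of this list differed among the models, as 91.1% of all tested genes did. Of the 14, 10 were higher in Pan02 (32.5% of all tested genes), 7 higher in MC38 (27%) and 11 lower in B16 (31.6%). Without Pan02 tumor 2, 9 of the 10 Pan02 calls stayed. Tnfsf13b, the survival factor BAFF, measured 20.2, 14.8 and 16.1 CPM in MC38, above all other tumors (log2 fold change 3.11 ± 0.26 SE, edgeR adjusted p = 6.4e-07). Il7, a lymphocyte growth factor, was lower in LL2 (-3.01 ± 0.73, adjusted p = 0.0043). Lta, a lymphotoxin, and Tnfsf11, the cytokine RANKL, were lower in B16 (-2.46 ± 0.69, adjusted p = 0.0058, and -2.29 ± 0.46, adjusted p = 0.00064).

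Further homeostatic chemokines and their scavengers were higher in Pan02 for 5 of 9 tested genes, against 32.5% of all tested genes. In B16, 6 of 9 were lower, against 31.6%. Ackr3, a scavenger of Cxcl12, was lower in B16 (log2 fold change -3.94 ± 0.51 SE, edgeR adjusted p = 1.6e-05), as was Gpr183, an oxysterol receptor that guides B cells (-2.34 ± 0.35, adjusted p = 5e-05). Ackr1, a chemokine receptor of venules, was higher in Pan02 (2.04 ± 0.66, adjusted p = 0.016) and lost that call without tumor 2. Ccl21b and Ccl21c, each annotated with 7 genome copies, held 4.0 counts each over all tumors.

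Vessels that admit lymphocytes were followed through 9 genes of high endothelial venules, of which 6 could be tested. In B16, 5 of 6 were lower (31.6% of all tested genes), and in Pan02 1 was higher (32.5%), namely Selp (P-selectin). Vcam1, an adhesion molecule, was lower in B16 (log2 fold change -3.08 ± 0.28 SE, edgeR adjusted p = 6e-07), as was Sele, E-selectin (-4.63 ± 0.87, adjusted p = 0.00029). Chst2, a sulfotransferase of selectin ligands, was higher in MC38 (2.44 ± 0.22, adjusted p = 1.2e-06). Glycam1, a defining gene of these venules, was at most 0.573 CPM and Chst4 at most 0.180 CPM in any tumor.

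The stroma of lymphoid organs was followed through 9 genes. Of these, 6 were higher in Pan02 (32.5% of all tested genes) and 7 were lower in B16 (31.6%). Enpp2, which makes lysophosphatidic acid, measured 1280.0 to 2460.0 CPM in Pan02 (log2 fold change 6.46 ± 0.36 SE, edgeR adjusted p = 1.1e-08), and in Pan02 CAFs it was at 611.0 and 514.0 RPKM. Grem1, an antagonist of bone morphogenetic proteins, was lower in B16 (-7.12 ± 0.61, adjusted p = 2.6e-07). The fibroblast list moved the same way, with 7 of 7 genes higher in Pan02 and 7 of 7 lower in B16, and its part was not tested. Of 5 genes of lymphatic endothelium, whose cells secrete Ccl21, 4 were higher in MC38 (27% of all tested genes). Higher were also 2 in B16 (31.9%), 1 in Pan02 (32.5%) and 1 in LL2 (23.3%). Lower were 2 in EO771 (27%), 1 in B16 (31.6%) and 1 in LL2 (18.9%). Prox1, the transcription factor of lymphatic identity, was higher in B16 (3.79 ± 0.51, edgeR adjusted p = 2.2e-05). Flt4 was at 13.5 to 25.4 CPM in B16, while Lyve1 was at 0.688 to 7.31 CPM, Mmrn1 at most 0.124 CPM and Reln at most 0.499 CPM. In MC38 tumors 1 to 3, Mmrn1 measured 0, 7.27 and 10.1 CPM and Reln 0.217, 2.71 and 4.76 CPM. Prox1 measured 0.144, 2.48 and 4.52 CPM there and Flt4 5.39, 21.7 and 29.7 CPM. MC38 tumor 1 was thus the lowest of its model in these genes, while Lyve1 was at 12.1, 16.2 and 9.58 CPM. Lyve1 was higher in Pan02 (2.41 ± 0.58, edgeR adjusted p = 0.0027).

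T cell genes were followed in 3 lists. Of 4 tested genes of follicular helper T cells, 1 (Bcl6) was higher in Pan02, against 32.5% of all tested genes. In B16 2 were lower, against 31.6%, and Bcl6 was at a log2 fold change of -1.82 ± 0.16 SE (edgeR adjusted p = 2.7e-07). Il21, their cytokine, was at most 0.240 CPM. Of 6 general T cell genes, 2 were higher in Pan02 (Cd4 at 1.81 ± 0.36, adjusted p = 0.00063, and Cd2 at 1.49 ± 0.49, adjusted p = 0.018) and 1 was lower in B16. Without Pan02 tumor 2, Cd2 lost its call and 1 was left, and without Pan02 tumor 1 there were 4. Of 5 naive T cell genes, 4 were lower in B16, 1 was higher in Pan02 and 2 were lower in EO771 (27% of all tested genes). In LL2 2 were higher (23.3%) and 1 was lower (18.9%). In MC38 2 were higher (27%), among them Lef1 (4.35 ± 0.32, adjusted p = 2.6e-07). Lef1 is also active in other cell types. The Pan02 call, of Tcf7, was lost without Pan02 tumor 1 and without Pan02 tumor 2. Sorted CAFs, with Cd3e at most 0.248 RPKM, held Bcl6 at 20.7 and 15.7 RPKM in Pan02 and 5.48 to 7.34 RPKM in the other models. Tcf7 was at 16.6 and 17.4 RPKM in Pan02 CAFs and 1.73 to 9.53 RPKM in the others, and Klf2 at 25.1 to 171 RPKM in all CAF libraries. Levels of Bcl6, Tcf7 and Klf2 are therefore not those of T cells alone.

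Mature dendritic cells carry Ccr7 and were followed through 9 genes. In Pan02 7 were higher (32.5% of all tested genes) and 1 was lower (28.1%). The lower gene was Fscn1, the most abundant of the 9, at 190.0, 260.0 and 150.0 CPM in Pan02 and 422.0 to 987.0 CPM elsewhere. The summed level of the list had its lowest median in Pan02 (380.0 CPM). Without Pan02 tumor 2, 4 of the 7 stayed higher, and Cd83, Cd86 and Il12b did not. Ccl17, a chemokine for T cells, measured 1.64, 22.1 and 33.3 CPM in Pan02 (log2 fold change 5.15 ± 0.64 SE, edgeR adjusted p = 1.2e-05). Ccl22, a related chemokine, measured 5.62, 85.9 and 40.3 CPM (3.18 ± 0.46, adjusted p = 5e-05). Cd83, a surface marker of these cells, was higher as well (1.98 ± 0.44, adjusted p = 0.0015). In all 3 genes, as in Ccr7, Pan02 tumor 1 lay below tumors 2 and 3. Cacnb3 of the same list was at 147.0, 155.0 and 80.7 CPM in these tumors, with tumor 3 lowest. Sorted CAFs, with Ptprc at most 0.947 RPKM, held Cacnb3 at 69.6 and 53.6 RPKM in Pan02 and 15.1 to 46.8 RPKM in the other models. Fscn1 was at 25.6 and 15.2 RPKM in Pan02 CAFs and 153 to 245 RPKM in the others. Levels of Cacnb3 and Fscn1 are therefore not those of dendritic cells alone.

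The genes most like each tested member were named by the Pearson correlation of log2(CPM + 0.5) over the 15 tumors, among 14295 genes. The tumors of a model share their cell line, so the correlation of deviations from the model means is given beside it. Cd79b was most like Mpeg1 (0.93, deviations 0.78), a macrophage gene, and Gpr65 (0.91, deviations 0.78). Cxcl13 was most like Cd209b (0.95, deviations 0.88) and C6 (0.94, deviations 0.85). Ccr7 was most like Il27ra (0.92, deviations 0.84) and Il2ra (0.92, deviations 0.92), and Cxcr5 was most like Klrg1 (0.95, deviations 0.90).

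Cd79a was most like Kcnab3 (0.94, deviations 0.42), Sgsm1 (0.93, deviations 0.04) and Xlr (0.93, deviations 0.73). Sgsm1 had means of 49.8 CPM in EO771, 32.4 CPM in MC38, 17.4 CPM in Pan02, 1.04 CPM in LL2 and 0.122 CPM in B16, the same order of models as Cd79a. Between members, the correlation of Cd79a with its partner Cd79b was 0.84 over the 15 tumors and 0.62 for deviations from the model means. With Ms4a1 it was 0.36 and 0.88, and with Cxcl13 0.28 and 0.69. With Ccr7 the correlation of Cd79a was 0.48 and 0.73, and with Cxcr5 0.24 and 0.82. Between Ccr7 and Cxcr5 the correlation was 0.90 and 0.87.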

How the data were processed

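For whole tumors, values are expected counts of unstranded reads over RefSeq transcripts, which the authors deposited after alignment to mm10 (STAR 2.5.0c) and counting (HOMER), and they move in steps of 0.5. CAF files hold RPKM that the authors deposited. The transcript with the highest mean stood for its gene. Left out were 5 columns of other samples and 2 unnamed transcripts (2.1e-05% of counts). Rounded counts of the 15722 genes that filterByExpr kept went into edgeR 4.0.16 with TMM factors and 1 term per model. CAFs were tested with limma 3.58.1 (F test, variance trend, log2 of RPKM plus 1) over 13598 genes that reached 1 RPKM in 2 or more libraries. Low CAF values were whole multiples of 1 read (within 0.1 read) for 99.4% to 99.96% of values. Relative to scaling by library totals, TMM shifted the median log2 fold change by -0.14 (MC38) and 0.11 (Pan02). Each fit was tested on simulated data. Alternatives were DESeq2 1.42.0, other scaling, filters, rounding, transcripts and pseudocounts, and leaving out single libraries.

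The members and lists were chosen with earlier results of these data known. Named genes are the members, up to 4 called genes with the largest fold change per list (where some model averaged 1 CPM or more), genes that check a label, and the 3 genes most correlated with each tested member. Pax5 in MC38, Il21, Irf4, Glycam1, Chst4, Fkbp11, Fscn1, Cacnb3, Flt4 and the genes lost without Pan02 tumor 2 were named after their values were seen. Counting limits of 3 counts cover counting error only. Positions of transcripts are those of the tumor table, and copies and overlaps come from GENCODE M21 (GRCm38).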

Additional observations from a re-analysis of the deposited data

How the results depend on the processing

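The fold changes of the 5 tested members in their highest and lowest models kept their sign under every alternative run for them. Over all lists but the members, melanocyte, epithelial and other marker lists included, the 5 contrasts gave 163 higher and 148 lower calls. Under DESeq2 they gave 164 higher and 169 lower. Of all tested genes, 23.3% (LL2) to 32.5% (Pan02) were higher in a model and 18.9% (LL2) to 31.6% (B16) were lower. The totals serve only to compare the settings. Among the lists, the lymphatic endothelium median in Pan02 moved from 0.07 to -0.16 without Pan02 tumor 1. Among the counts of called members, DESeq2 and the fit with the replicate number as a block each gave 1 lower member in EO771 instead of 0, and the replicate block gave 2 lower members in LL2 instead of 1. Leaving out single tumors gave 0 to 1 lower in EO771, 1 to 2 lower in LL2, 0 to 1 higher in LL2, 3 to 4 lower in B16, 2 to 5 higher in Pan02 and 1 to 2 higher in MC38. The lowest Pan02 count came without Pan02 tumor 2 and the lowest MC38 count without MC38 tumor 3. Cxcl13 became lower in EO771 without LL2 tumor 1, Pan02 tumor 1 or EO771 tumor 3 and higher in LL2 without B16 tumor 3, Cd79b became lower in LL2 without Pan02 tumor 1, and Cxcr5 became lower in B16 without B16 tumor 3. The cause was not tested. Tumors with the same replicate number did not deviate together (correlations -0.167 to 0.259, 7 of 30 over 0.1, and 7 of 15 tumors closest to their own number), so the numbers were not read as pairs. The replicate block could not be run for CAFs, since their columns carry no replicate number. Leaving out Pan02 tumors 1 and 2 for the lists and testing recovered CAF reads with edgeR were chosen after seeing the data. Ms4a1 and Cr2 were limited by depth.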

Other observations

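In MC38 CAF libraries, several B lineage genes were above the other CAF libraries, with Ptprc at 0.007 and 0.084 RPKM there. They were chosen after their values were seen, and no test was run. Vpreb3, of the B cell list, was at 1.04 and 1.02 RPKM and at most 0.166 RPKM in the other 6 libraries. Spib was at 1.14 and 0.855 RPKM against at most 0.216 RPKM, and Bank1 at 0.518 and 0.511 RPKM against at most 0.088 RPKM. Cd22 was at 0.529 and 0.727 RPKM against at most 0.208 RPKM, and Pou2af1 at 0.281 and 0.485 RPKM against at most 0.133 RPKM. Tnfrsf13b was at 0.203 and 0.290 RPKM against at most 0.201 RPKM. Not all B lineage genes followed. Ms4a1 and Mzb1 were at 0 in both MC38 libraries, and Ebf1 was at 6.49 and 3.25 RPKM there against 7.31 and 7.68 RPKM in EO771 CAFs. The summed B cell list was at 14.9 and 11.6 RPKM in MC38 and 16.7 and 17.2 RPKM in EO771 CAFs. In the same 2 libraries Col1a1 was at 2771 and 467 RPKM, while Cd79a was at 5.56 and 4.66 RPKM and Ccr7 at 5.42 and 4.63 RPKM.

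The skin and muscle list, which marks tissue around a flank tumor, was at 716.0, 170.0 and 44.7 CPM in Pan02 tumors 1 to 3, the reverse order of the leukocyte list (342.0, 788.0 and 845.0 CPM). In LL2 tumors 1 to 3 it was at 7.44, 688.0 and 965.0 CPM, the same order as the leukocyte list (321.0, 472.0 and 804.0 CPM). In MC38 it was at 754.0, 313.0 and 2440.0 CPM, also in the order of the leukocyte list (461.0, 419.0 and 588.0 CPM). Of the 7 skin and muscle genes, 5 were higher in LL2 (23.3% of all tested genes). Of the epithelial list, 5 of 5 genes were higher in Pan02 (32.5% of all tested genes). In B16 (31.6%) and in MC38 (24.4%) 4 of 5 were lower, and in EO771 1 was higher (27.2%) and 2 were lower (27%).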
